A study of Mus musculus with 4 samples.

Results

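The transcripts examined here encode the proteins that bind poly(A) tails and the canonical enzymes that make them. They were the 7 genes whose identifier was Pabpc1, Pabpc1l, Pabpc4, Pabpn1, Pabpn1l, Papola or Papolg, out of 23309 gene symbols in the deposited tables. Each of the 7 stood on a single row in each of the 4 libraries. The series measured mRNA by paired-end sequencing in mouse oocytes of the ICR strain, taken from females 21 to 23 days old, with 60 oocytes or embryos lysed together per library according to the protocol, although the design text speaks of single oocytes. The groups were mature oocytes (MII, arrested in metaphase of the second meiotic division) labelled Erk-/-, wild-type MII oocytes, fully grown oocytes before meiotic resumption (GV, germinal vesicle) labelled Erk-/-, and wild-type GV oocytes, with 1 library per group. The protocols name the hormones PMSG and hCG for all females without saying which library received which. They also name Btg4-/- rather than Erk-/- females. Which ERK gene or exons were deleted, and in which cells, is not given in the sources used here.

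Cytoplasmic poly(A)-binding proteins of the PABPC type coat the tail of an mRNA, contact the initiation factor eIF4G and so promote translation, and they also meet the enzymes that shorten the tail. PABPN1 binds growing tails in the nucleus and stimulates poly(A) polymerase. Oocytes use germline counterparts. PABPC1L, also called ePAB, is needed for female fertility in the mouse, and PABPN1L binds BTG4, the adaptor of the CCR4-NOT deadenylase, and is needed in mice for clearing maternal mRNA. Transcription is nearly silent in fully grown oocytes, so the length of the tail largely sets which stored messages are translated during meiotic maturation. PAPOLA and PAPOLG are canonical poly(A) polymerases.

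Values are FPKM, fragments relative to the length of the transcript and the size of the library, a scale on which levels of different genes can be compared. With no replicate, every difference is between single libraries, none was tested, and no p-value is given. A ratio was counted as higher or lower when log2 of (FPKM + 1) differed by at least 1, which is 2-fold, and this scale understates the change of low genes. Folds and percentages for a single gene were taken from FPKM itself, with nothing added. The authors' lower and upper bounds are quoted in parentheses and cover uncertainty within a library. They are left out for Pabpn1l in all 4 libraries, Pabpc1l at GV and Pabpn1 at MII, where the FPKM exceeded the upper bound given for it. FPKM is relative to each library's total, and in such pools less RNA per oocyte cannot be told apart from fewer oocytes. How the mRNA was purified is not given in the sources used here, so the amount of a transcript and the length of its tail cannot be told apart either.

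Mapk3, which encodes ERK1, had 34.3 FPKM (28.9 to 35.4) in MII labelled Erk-/- and 25.7 (21.5 to 27.2) in wild-type MII, against 52.3 (44.3 to 54.5) in GV labelled Erk-/- and 333 in wild-type GV, a value above its own upper bound. The library labelled Erk-/- MII was therefore not lower in Mapk3 than wild type, and every genotype difference at MII below carries that limit. Btg4 had 1565 and 2987 FPKM in MII labelled Erk-/- and wild-type MII, against 250.2 and 216 in the GV libraries in the same order. All 10 oocyte markers were at 1 FPKM or more in every library, with summed levels of 12376 FPKM in MII labelled Erk-/-, 11186 in wild-type MII, 13567 in GV labelled Erk-/- and 17640.5 in wild-type GV. Of these 10, 4 were at least 2-fold lower at MII in the libraries labelled Erk-/- and 8 in wild type, and 7 were at least 2-fold higher in MII labelled Erk-/- than in wild-type MII. Of all 9990 genes averaging 1 FPKM or more, 35.6% and 49.6% were lower at MII in those genotypes in that order, and 31.4% were higher in MII labelled Erk-/-. Of 13 cumulus and granulosa cell markers, 2 to 5 were above 0 per library. Their summed level was 13.5 FPKM in MII labelled Erk-/-, 22.7 in wild-type MII, 12.4 in GV labelled Erk-/- and 22.1 in wild-type GV, and Amh, Fshr, Foxl2, Inhba, Hsd17b1, Tnfaip6 and Ptx3 were listed at 0 in all 4. Cyp19a1 had 10.8 FPKM in MII labelled Erk-/-, 21.8 in wild-type MII, a listed 0 in GV labelled Erk-/- and 15.5 in wild-type GV. Inha had 0.0698 FPKM, a listed 0, 11.3 and 3.80 in the same order. Of 6 blood and other ovarian markers, Pecam1 alone was above 0 (25.6 to 64.3 FPKM). The part of these marker levels in the results was not tested. A listed 0 can be a failed estimate and need not mean absent mRNA, since 3023 of the 9990 genes were at 0 in at least 1 library, and Clp1 and Zcchc11, both widely expressed, were at 0 in all 4.

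The ends of the transcripts, where the hexamer read by the cleavage machinery usually stands, are shown because Pabpc1l and Pabpn1l carried the same hexamer. In wild type their MII levels lay on opposite sides of their GV levels. The last 30 bases of the longest protein-coding transcript of GENCODE M21 (reference build GRCm38) held AATAAA or ATTAAA, printed in capitals, in 4 of the 7 genes.
Pabpc1: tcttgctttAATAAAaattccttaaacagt
Pabpc1l: ctttatatATTAAAaaatgctgcaaaaatc
Pabpc4: taAATAAAtttactttcccttttggttttt
Pabpn1l: aatgtaaattATTAAActtgaatatatttt
On GRCm38 these are chr15:36595661-36595690 on the minus strand for Pabpc1, chr2:164050509-164050538 on the plus strand for Pabpc1l, chr4:123298896-123298925 on the plus strand for Pabpc4 and chr8:122619471-122619500 on the minus strand for Pabpn1l. The variant hexamer ATTAAA stood in both Pabpc1l, which was far lower at MII in wild type, and Pabpn1l, which was higher. AATAAA stood in Pabpc1 and Pabpc4, which were both lower at MII. AATAAA was found in the last 30 bases of 51.5% of 21828 protein-coding genes searched the same way, and ATTAAA without AATAAA in 11.7%. The cytoplasmic polyadenylation element, searched as TTTTAT or TTTTAAT on the transcript strand in the last 100 bases, was found in Pabpc4 of the 7 genes and in 16.6% of all genes. No hexamer was found in the last 100 bases of the longest transcripts of Pabpn1, Papola and Papolg, which says only that these letters are not in those windows. One or both hexamers were found in the last 100 bases of 74.9% of all genes. Other annotated transcripts of a gene can end elsewhere.

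At MII the balance of poly(A)-binding protein transcripts differed from that at GV, with a smaller share of PABPC-type and a larger share of PABPN-type mRNA. In the libraries labelled Erk-/-, the 3 PABPC-type genes summed to 133 FPKM at MII and 313 FPKM at GV, and in wild type to 27.5 FPKM at MII and 354 FPKM at GV. The PABPN-type pair summed to 717 FPKM at MII and 481 FPKM at GV in the libraries labelled Erk-/-, and to 983 FPKM at MII and 271 FPKM at GV in wild type. PABPC-type transcripts therefore made up 15.7% of the 5-gene total in MII labelled Erk-/- and 39.4% in GV labelled Erk-/-, and 2.73% in wild-type MII and 56.6% in wild-type GV. The ratio of PABPN-type to PABPC-type FPKM was 5.38 in MII labelled Erk-/- and 35.7 in wild-type MII, and 1.54 in GV labelled Erk-/- and 0.767 in wild-type GV. These shares do not depend on how libraries are scaled to each other.

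**Figure D1:**
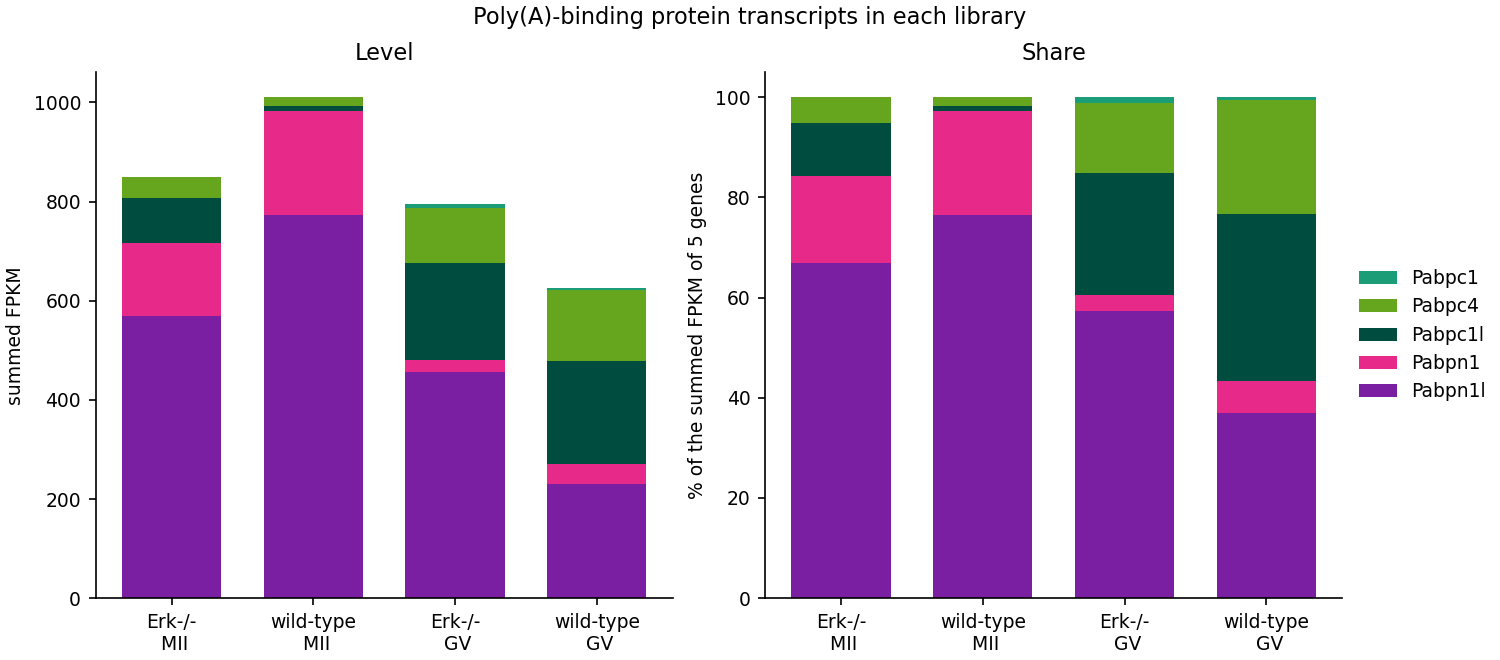
Summed FPKM (left) and share of that sum in percent (right) of 5 poly(A)-binding protein genes in each of the 4 libraries, stacked by gene, with 1 library per bar. Pabpn1l and Pabpn1 fill 84.3% of the bar for MII labelled Erk-/- and 97.3% of that for wild-type MII, against 60.6% in GV labelled Erk-/- and 43.4% in wild-type GV.

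In the libraries labelled Erk-/-, 1 of the 7 genes (Pabpn1) passed the 2-fold size upwards at MII relative to GV and 4 passed it downwards (Pabpc1, Pabpc1l, Pabpc4 and Papolg). Over all 9990 genes whose average was 1 FPKM or more, 22.9% were higher and 35.6% lower, and the median log2 ratio was -1.10 for the members and -0.26 for all genes. In wild type, 2 members were higher (Pabpn1 and Pabpn1l) and the same 4 were lower, against 20.6% and 49.6% of all genes, with medians of -1.88 and -0.97. In wild type the members' shares lie near this background. With median-of-ratios scaling the all-gene median shifted by 0.18 in the libraries labelled Erk-/- and by 0.67 in wild type, where 42.3% of the genes past 2-fold were then higher instead of 29.3%.

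**Figure D2:**
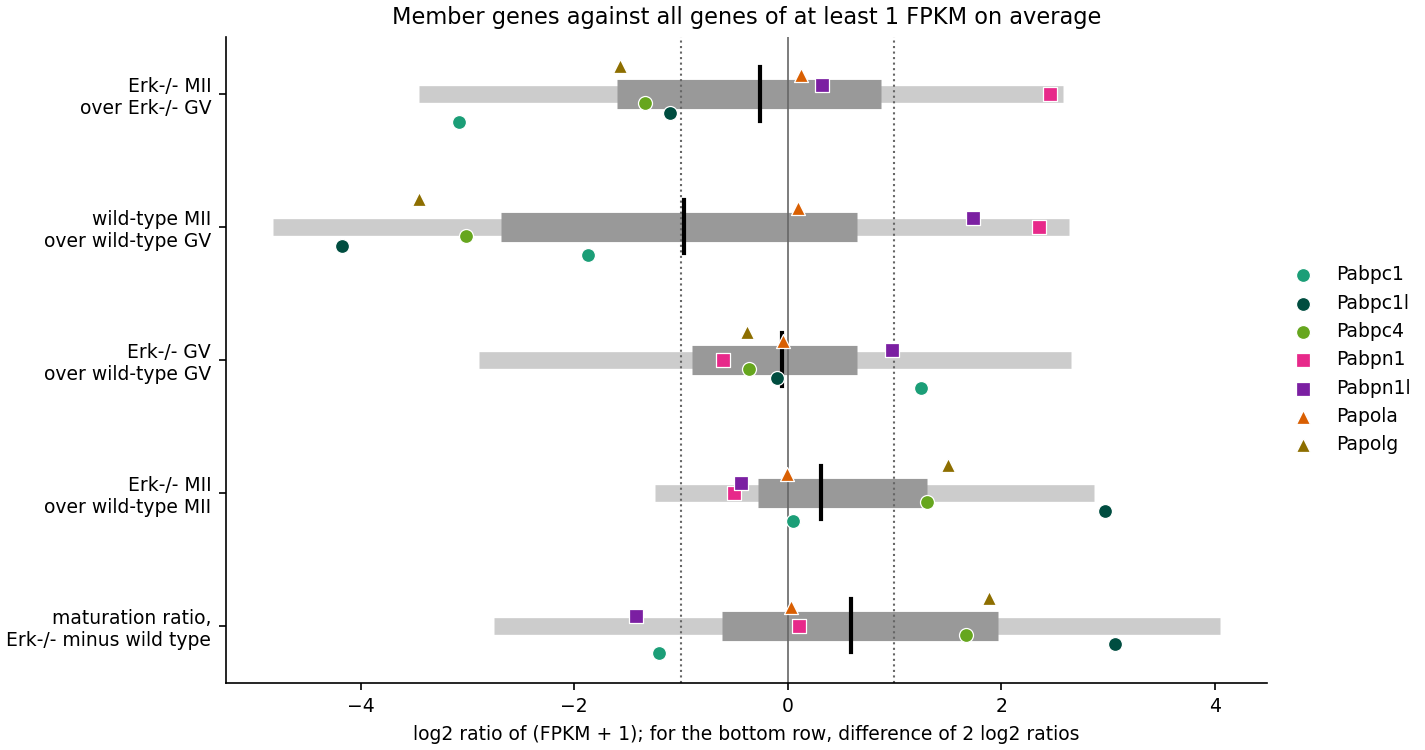
Log2 ratio of (FPKM + 1) of each member gene in 4 comparisons, and the difference of the maturation ratios in the bottom row. Light and dark grey bars span the 5th to 95th and 25th to 75th percentiles of 9990 genes, black ticks are their medians, and dotted lines mark 2-fold. Pabpc1l, Pabpc4, Papolg and Pabpc1 lie left of the median in both maturation rows and Pabpn1 lies right of it.

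Pabpc1l encodes the oocyte's own PABPC (mm9 chr2:163850960-163876274). It had 89.8 FPKM (81.1 to 90.2) in MII labelled Erk-/-, 10.6 (8.92 to 12.1) in wild-type MII, 194 in GV labelled Erk-/- and 208 in wild-type GV. Wild-type MII stood apart from the other libraries, and the GV libraries were close to each other. In the libraries labelled Erk-/- the MII level was 46.3% of the GV level (log2 ratio -1.10, and -0.90 under median-of-ratios scaling, which is under 2-fold). The level in wild-type MII was 5.10% of that in wild-type GV, a 19.6-fold lower value (log2 ratio -4.17), and 8.92% of all genes had a lower ratio. At MII the library labelled Erk-/- held 8.49-fold more Pabpc1l than wild type (log2 ratio 2.97), a ratio above that of 95.5% of all genes. Of 5276 other genes averaging 10 FPKM or more, those with the most similar profile over the 4 libraries were Osbpl10, Puf60 and Bag4, with root mean square differences of 0.0490, 0.0559 and 0.0659 on the centred log2 scale.

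Pabpc4 encodes a PABPC found in many somatic tissues (mm9 chr4:122960154-122976076). It had 43.2 FPKM (40.4 to 46.1) in MII labelled Erk-/-, 16.9 (15.2 to 18.6) in wild-type MII, 111 (105 to 117) in GV labelled Erk-/- and 143 (137 to 149.5) in wild-type GV. The bounds of the 4 libraries did not overlap, and both MII libraries lay below both GV libraries. The MII level was 38.9% of the GV level in the libraries labelled Erk-/- (log2 ratio -1.34) and 11.8% in wild type (log2 ratio -3.01). At MII the library labelled Erk-/- was 2.56-fold higher than wild type, with a log2 ratio of 1.31 that was 0.79 under median-of-ratios scaling, below the 2-fold size. GENCODE M21 holds 7 pseudogenes with at least 90% identity to Pabpc4 over 500 or more bases, none of them in the deposited tables, so reads may be split between copies. The most similar profiles were those of Slc4a8, Anapc5 and Fbxw18 (differences 0.0548, 0.0597 and 0.0768).

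Pabpc1 encodes the main PABPC of somatic cells (mm9 chr15:36525413-36538728) and was the scarcest of the PABPC-type members in every library. It had 0.102 FPKM (0 to 0.192) in MII labelled Erk-/-, 0.0666 (0 to 0.156) in wild-type MII, 8.32 (6.85 to 9.74) in GV labelled Erk-/- and 2.91 (2.25 to 3.57) in wild-type GV. At MII the lower bound reached 0 in both libraries and the bounds overlapped, so a genotype difference there was not detectable. The log2 ratio of MII to GV was -3.08 in the libraries labelled Erk-/- and -1.88 in wild type. The amount added sets these ratios: with 5 FPKM they were -1.38 in the libraries labelled Erk-/- and -0.64, under 2-fold, in wild type, and with 0.1 FPKM they were -5.38 and -4.18 in that order. At GV the library labelled Erk-/- was 2.86-fold higher than wild type (log2 ratio 1.25), and with 5 FPKM added instead of 1 the log2 ratio was 0.75, under 2-fold. M21 holds 2 pseudogenes nearly identical to Pabpc1 under the same limits. Its closest profiles were Ppp2r2d, Hspa1a and Lrwd1 (differences 0.103, 0.119 and 0.123 over 5277 candidates).

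The make-up of the PABPC type also differed between the MII libraries. Pabpc1l gave 67.5% of PABPC-type FPKM in MII labelled Erk-/- and 38.4% in wild-type MII, against 61.9% in GV labelled Erk-/- and 58.7% in wild-type GV. Pabpc1l exceeded Pabpc4 2.08-fold in MII labelled Erk-/-, whereas Pabpc4 exceeded Pabpc1l 1.60-fold in wild-type MII. In the GV libraries Pabpc1l was the higher, 1.75-fold in GV labelled Erk-/- and 1.45-fold in wild-type GV. Wild-type MII was thus the library in which the order of these genes turned.

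Pabpn1l, the germline relative of PABPN1 (mm9 chr8:125143371-125146635), had the highest FPKM of the members in each library. It had 569 FPKM in MII labelled Erk-/-, 773 in wild-type MII, 455 in GV labelled Erk-/- and 231 in wild-type GV. It ranked 83rd, 60th, 112th and 321st of 23309 gene symbols in those libraries. The value in wild-type GV stood apart below the others. There Pabpn1l was close to Pabpc1l (208 FPKM), and both values exceeded their upper bounds, so their order in that library is uncertain. The MII level was 125% of the GV level in the libraries labelled Erk-/- (log2 ratio 0.32) and 335% in wild type (log2 ratio 1.74). At GV the library labelled Erk-/- was 1.97-fold higher than wild type, with a log2 ratio of 0.98 that was 1.06 under median-of-ratios scaling and 1.08 when FPKM was rescaled to a common sum, both past 2-fold. At MII it was 1.36-fold lower (log2 ratio -0.44, and -0.97 under median-of-ratios scaling, just under 2-fold). As deposited, 19.5% of all genes had a lower ratio. In M21 Pabpn1l overlaps Gm20388 on the opposite strand and Mir6396 on its own. Whether the counting used strand is not given in the sources used here. Ttll5, Unc5a and Cep95 had the most similar profiles (differences 0.0550, 0.0561 and 0.0613).

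Pabpn1, the nuclear binding protein gene (mm9 chr14:55512980-55517764), was higher at MII in both genotypes, to a like extent in FPKM as deposited. It had 148 FPKM in MII labelled Erk-/-, 209 in wild-type MII, 26.1 (21.5 to 28.05) in GV labelled Erk-/- and 40.3 (34.2 to 42.1) in wild-type GV. Both MII libraries lay above both GV libraries, and wild type was the higher at each stage. The MII level was 567% of the GV level in the libraries labelled Erk-/- and 520% in wild type (log2 ratios 2.46 and 2.35). Under median-of-ratios scaling these log2 ratios were 2.65 and 3.16 in that order. The library labelled Erk-/- was 1.42-fold lower than wild type at MII (log2 ratio -0.50, and -1.03 under median-of-ratios scaling) and 1.55-fold lower at GV (log2 ratio -0.61). Pabpn1 overlaps the annotated gene Gm20521 on its own strand in M21, and reads of these genes may be split. Ppp1r15a, Dusp14 and Fbxo43 had the closest profiles (differences 0.0516, 0.0524 and 0.0756).

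Among PABPN-type transcripts Pabpn1l exceeded Pabpn1 in each library, by a factor that differed between the GV libraries more than between the MII libraries. The factor was 3.86 in MII labelled Erk-/- and 3.69 in wild-type MII. It was 17.5 in GV labelled Erk-/- and 5.73 in wild-type GV.

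**Figure D3:**
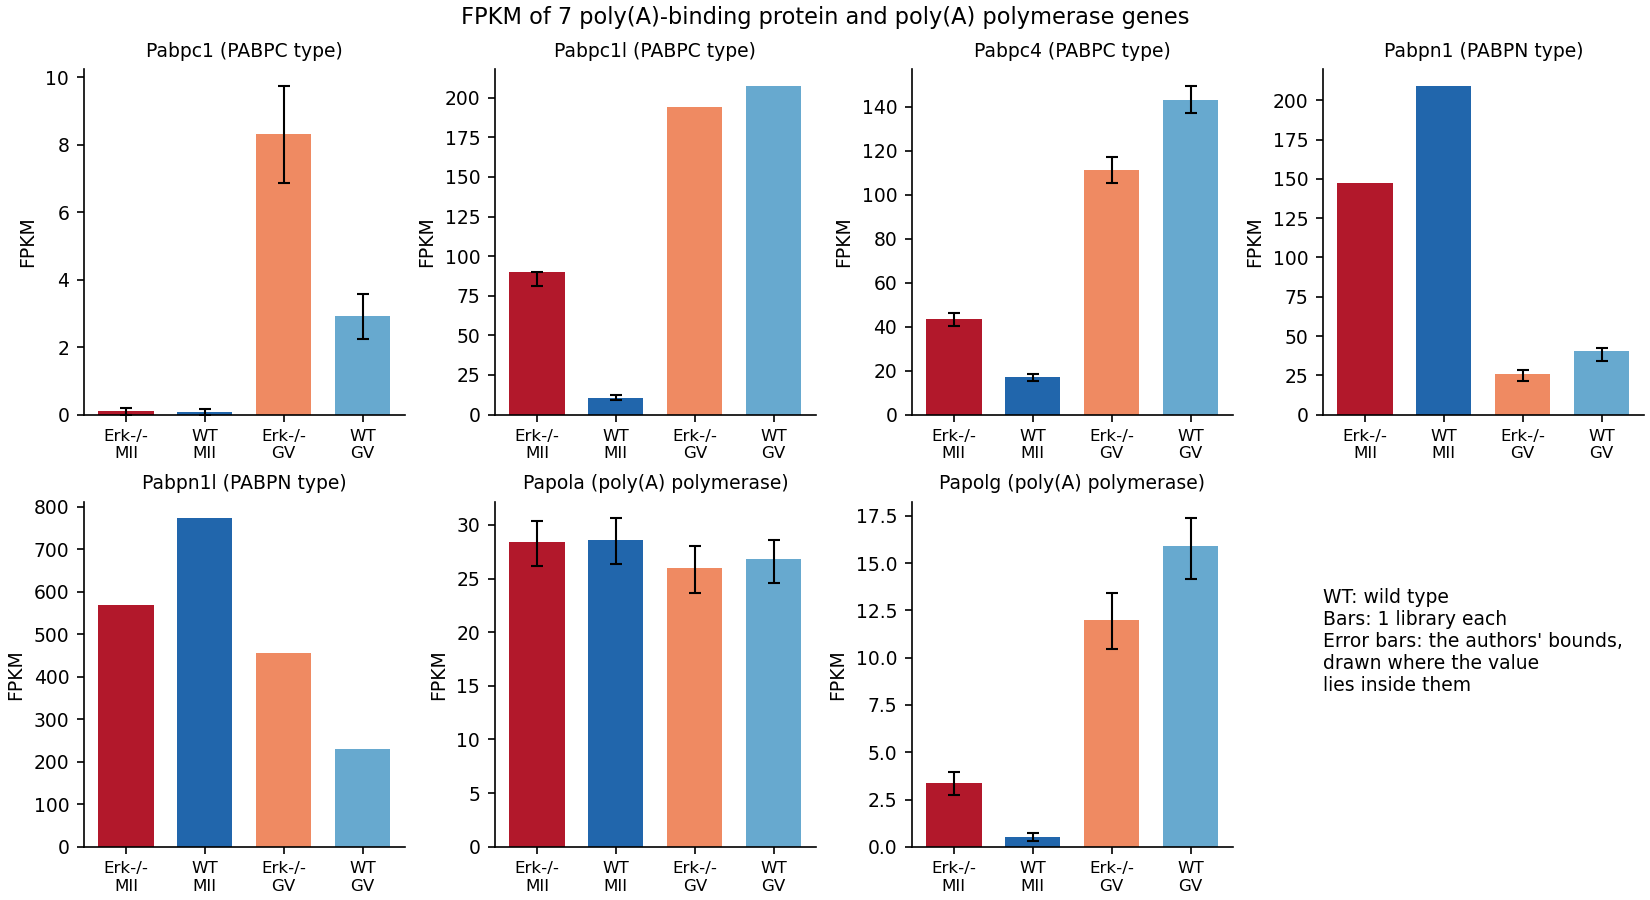
FPKM of the 7 member genes in the 4 libraries, each panel on its own linear axis from 0, with error bars for the authors' bounds where the value lies inside them. Pabpc1l, Pabpc4 and Papolg are lowest in wild-type MII, Papola is level at 26.0 to 28.6 FPKM, and Pabpn1 and Pabpn1l are highest in wild-type MII.

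Papola, the main nuclear poly(A) polymerase gene (mm9 chr12:107022912-107077153), had nearly equal FPKM in all libraries. It had 28.4 FPKM (26.2 to 30.4) in MII labelled Erk-/-, 28.6 (26.3 to 30.6) in wild-type MII, 26.0 (23.7 to 27.99) in GV labelled Erk-/- and 26.8 (24.6 to 28.6) in wild-type GV. The bounds overlapped in all 4 comparisons. Since the median gene was lower at MII, a level FPKM placed Papola above 67.8% of genes in wild-type maturation, 1.06 log2 units above the median of all genes. Under median-of-ratios scaling its log2 ratio of MII to GV was 0.89 in wild type, against 0.093 as deposited. The closest profiles were Tars, Traf4 and Rps12 (differences 0.0222, 0.0239 and 0.0607).

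Papolg, which encodes another canonical polymerase (mm9 chr11:23762646-23795270), was lower at MII in both genotypes. It had 3.36 FPKM (2.76 to 3.95) in MII labelled Erk-/-, 0.540 (0.328 to 0.749) in wild-type MII, 12.0 (10.5 to 13.4) in GV labelled Erk-/- and 15.9 (14.2 to 17.4) in wild-type GV. Wild-type MII was the lowest library, and the bounds of the MII libraries did not overlap. The MII level was 28.1% of the GV level in the libraries labelled Erk-/- (log2 ratio -1.57) and 3.39% in wild type (log2 ratio -3.46, and -1.92 with 5 FPKM added). At MII the library labelled Erk-/- was 6.23-fold higher than wild type (log2 ratio 1.503, and 0.59 with 5 FPKM added). Papola FPKM exceeded that of Papolg 8.45-fold in MII labelled Erk-/- and 53.0-fold in wild-type MII, against 2.17-fold and 1.68-fold in the GV libraries labelled Erk-/- and wild type. The most similar profiles were Syngr3, Gna14 and Tyw1 (differences 0.0819, 0.0906 and 0.0922). M21 places the antisense gene Gm12061 on the opposite strand of Papolg.

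Between genotypes at GV, 1 of 7 members was at least 2-fold higher in GV labelled Erk-/- (Pabpc1) and 0 were lower, against 18.4% and 22.9% of all genes. At MII, 3 of 7 were at least 2-fold higher in the library labelled Erk-/- (Pabpc1l, Pabpc4 and Papolg) and 0 were lower, against 31.4% and 7.43% of all genes. The member median log2 ratio was -0.10 at GV, against -0.056 for all genes, and 0.047 at MII, against 0.31 for all genes. With median-of-ratios scaling the all-gene median shifted by -0.31, and 59.1% of the genes past 2-fold were then higher, against 80.9% as deposited. The members that were higher at MII in the library labelled Erk-/- were lower at MII than at GV in wild type, a pair of comparisons that share the wild-type MII library.

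The difference of the log2 maturation ratios (MII over GV in the libraries labelled Erk-/-, less the same in wild type) was at least 2-fold positive for 3 members and at least 2-fold negative for 2, against 41.2% and 18.8% of all genes. It was positive for Pabpc1l (3.07), Papolg (1.89) and Pabpc4 (1.67), whose MII levels kept more of the GV level in the libraries labelled Erk-/-. For Papolg it was 0.90, under 2-fold, with 5 FPKM added and 2.84 with 0.1 FPKM added. It was negative for Pabpn1l (-1.42) and Pabpc1 (-1.20), and for Pabpc1 it was -0.74, under 2-fold, with 5 FPKM added. For Pabpn1l and Pabpc1 the GV library labelled Erk-/- was the higher of the GV pair, which enters this difference. For Pabpn1 (0.11) and Papola (0.031) it lay near 0 and turned negative under both scalings (-0.52 and -0.57 with median-of-ratios scaling). The member median was 0.11 and that of all genes 0.59, which median-of-ratios scaling moved by -0.49, giving 55.2% of the genes past 2-fold as positive, against 68.7% as deposited.

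**Figure D4:**
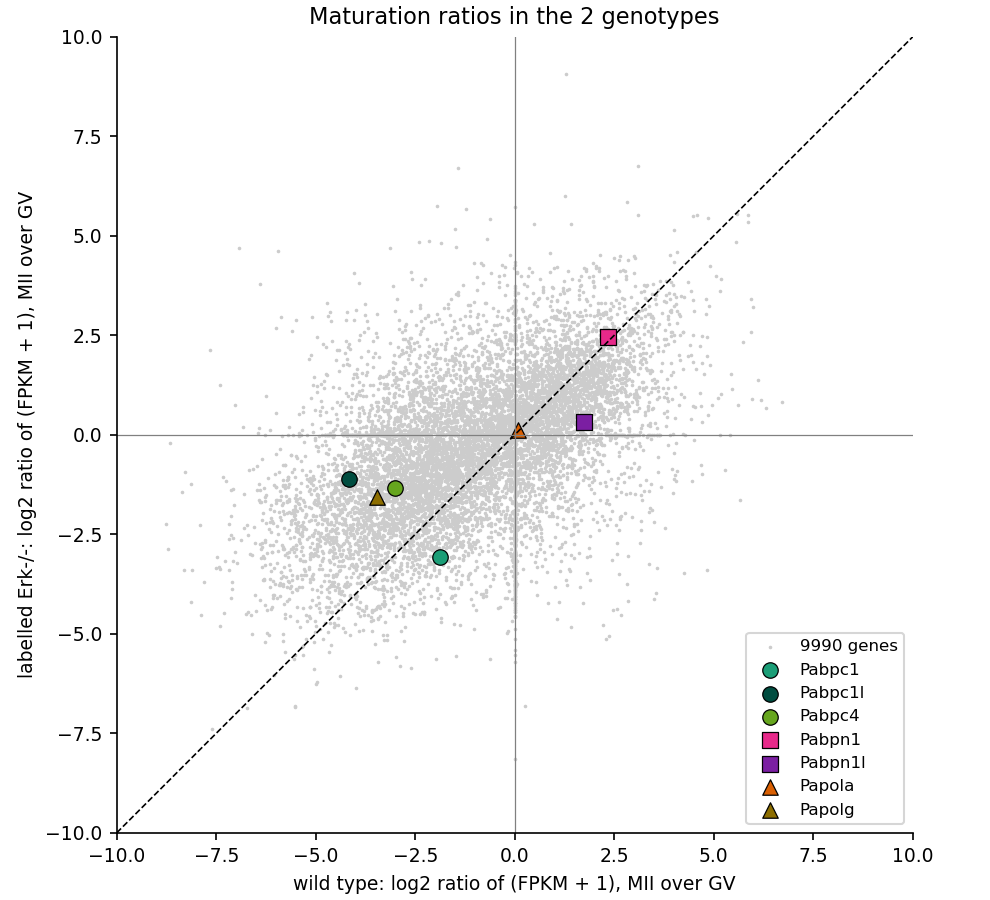
Log2 ratio of (FPKM + 1) at MII over GV in wild type (horizontal) and in the libraries labelled Erk-/- (vertical) for 9990 genes in grey and the 7 members in colour, with the line of equal ratios dashed. Pabpc1l, Pabpc4 and Papolg lie above the line in the lower left, Pabpn1 and Papola lie near it, and Pabpn1l and Pabpc1 lie below it.

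Of other poly(A)-binding protein genes, Pabpc2, Pabpc4l, Pabpc5 and Pabpc6 were listed at 0 in all 4 libraries. Zc3h14, which encodes a nuclear zinc-finger protein that binds poly(A), had 46.2 FPKM in MII labelled Erk-/-, 58.5 in wild-type MII, 28.8 in GV labelled Erk-/- and 34.4 in wild-type GV. Its log2 ratios stayed under 2-fold in each comparison (0.67 in the libraries labelled Erk-/- and 0.75 in wild type for MII over GV).

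The list of partners of the poly(A)-binding proteins held 21 genes. It was drawn widely, and the products of Eif4g2, Eif4e and Eif4e1b in it need not bind these proteins themselves. Of the 21 genes, 4 were at least 2-fold higher at MII and 7 lower in the libraries labelled Erk-/-, against 22.9% and 35.6% of all genes. The median log2 ratio was -0.49 beside -0.26. In wild type 4 were higher and 13 lower, against 20.6% and 49.6% of all genes, with a median of -2.08 beside -0.97. Paip1, whose protein joins PABPC to initiation factors and promotes translation, had 166 FPKM at MII and 31.4 at GV in the libraries labelled Erk-/-, and 206 and 42.8 in wild type. Larp4, whose protein binds poly(A) and PABPC, had 52.6 and 9.56 FPKM in the libraries labelled Erk-/-, and Usp10 had 5.59 and 29.2. Paip2, whose protein displaces PABPC from the tail, had 127 FPKM at MII and 254 at GV in the libraries labelled Erk-/-, and 17.6 and 201 in wild type. In wild type Paip1 was thus higher and Paip2 lower at MII. Paip2 was also lower at MII in the libraries labelled Erk-/- (log2 ratio -0.99, just under 2-fold). The inhibitor gene Paip2b had log2 ratios of 0.33 in the libraries labelled Erk-/- and -1.87 in wild type. Eif4b, which encodes an initiation factor, was lower at MII in both, at -1.92 and -2.35 in that order. Genes of the eIF4G family were mixed in wild type, with log2 ratios of -0.49 for Eif4g1, 1.07 for Eif4g2 and -2.08 for Eif4g3. What these levels mean for translation was not tested. Etf1, which encodes the translation termination factor eRF1, had 0.0749 FPKM in wild-type MII and 26.1 in wild-type GV, and Larp1, a regulator of messages for ribosomal proteins, had 0.0274 and 8.52.

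Between genotypes, 0 of 21 partners were higher and 2 lower in GV labelled Erk-/-, against 18.4% and 22.9% of all genes. These were Tob1, whose protein links PABPC to the deadenylase and which was listed at 0 in GV labelled Erk-/- beside 11.9 FPKM in wild-type GV, and Larp1 (0.904 and 8.52 FPKM). Mkrn1 had 8.52 and 15.8 FPKM. At MII 8 partners were higher and 0 lower in the library labelled Erk-/-, against 31.4% and 7.43% of all genes, with a median of 0.37 beside 0.31. Paip2 had 127 FPKM there and 17.6 in wild-type MII, Paip2b, a related inhibitor, 239 and 48.0, and Etf1 8.73 and 0.0749. The difference of maturation ratios was at least 2-fold positive in 10 partners and negative in 0, against 41.2% and 18.8% of all genes (median 0.42 beside 0.59), with values of 4.45 for Tob1, 4.13 for Larp1 and 2.85 for Etf1.

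Other poly(A) and nucleotidyl polymerases were mixed, with 7 of 12 genes reaching an average of 1 FPKM. In the libraries labelled Erk-/- 1 was higher and 3 lower at MII, against 22.9% and 35.6% of all genes (median -0.58 beside -0.26). In wild type 2 were higher and 3 lower, against 20.6% and 49.6% (median -0.73 beside -0.97). Fam46c and Fam46b encode noncanonical poly(A) polymerases. Fam46c had 124 FPKM at MII and 536 at GV in the libraries labelled Erk-/-, and 26.4 and 532 in wild type. Fam46b had 25.3 FPKM in wild-type MII and 328 in wild-type GV. Tut1, the enzyme that adds uridines to U6 RNA, had 4.37 FPKM at MII and 23.6 at GV in the libraries labelled Erk-/-, and 2.63 and 33.6 in wild type. Papd7, another noncanonical polymerase, was higher at MII, with 281 FPKM at MII and 121 at GV in the libraries labelled Erk-/-. At GV 1 was higher and 0 lower in the library labelled Erk-/-, against 18.4% and 22.9% (median 0.011 beside -0.056). Papd5 had 25.7 FPKM in GV labelled Erk-/- and 7.93 in wild-type GV, and Mtpap, the mitochondrial polymerase, 40.1 and 52.2. At MII 2 were higher and 0 lower, against 31.4% and 7.43% (median 0.11 beside 0.31). Fam46b had 267 FPKM in MII labelled Erk-/- and 25.3 in wild-type MII, Fam46c 124 and 26.4, and Papd4, the cytoplasmic polymerase GLD2, had 58.4 and 98.0. The difference of maturation ratios was 2-fold positive in 3 and negative in 1, against 41.2% and 18.8% (median 0.47 beside 0.59). It was 3.07 for Fam46b, 2.18 for Fam46c and -1.47 for Papd5.

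Of 15 nuclear cleavage and polyadenylation genes, 14 reached an average of 1 FPKM. In the libraries labelled Erk-/- 1 was higher and 5 lower at MII, against 22.9% and 35.6% of all genes (median -0.42 beside -0.26). In wild type 2 were higher and 4 lower, against 20.6% and 49.6% (median -0.58 beside -0.97). Nudt21, a subunit of cleavage factor I, had 4.22 FPKM in MII labelled Erk-/- and was listed at 0 in GV labelled Erk-/-. Cstf3 and Cstf2, which encode cleavage stimulation factors, had 1.04 and 3.65 FPKM at MII and 8.45 and 12.8 at GV there. Sympk, the scaffold of the cleavage complex, had 1.29 FPKM in wild-type MII and 35.0 in wild-type GV. Cstf3 and Cstf2t were listed at 0 in wild-type MII, beside 9.31 and 3.32 FPKM in wild-type GV. At GV 3 were higher and 2 lower in the library labelled Erk-/-, against 18.4% and 22.9% (median 0.26 beside -0.056). There Nudt21 was listed at 0 against 16.9 FPKM, Cpsf6 had 11.9 FPKM against 1.90 and Rbbp6 4.56 against 0.452 in wild-type GV. At MII 5 were higher and 1 lower, against 31.4% and 7.43% (median 0.23 beside 0.31), with Sympk at 25.7 FPKM in the library labelled Erk-/- and 1.29 in wild type, Nudt21 at 4.22 and 11.9, and Cstf2t at 4.01 beside a listed 0. The difference of maturation ratios was 2-fold positive in 5 and negative in 2, against 41.2% and 18.8% (median 0.082 beside 0.59), at 3.28 for Sympk, 2.85 for Nudt21 and 2.60 for Cstf2t.

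**Figure D5:**
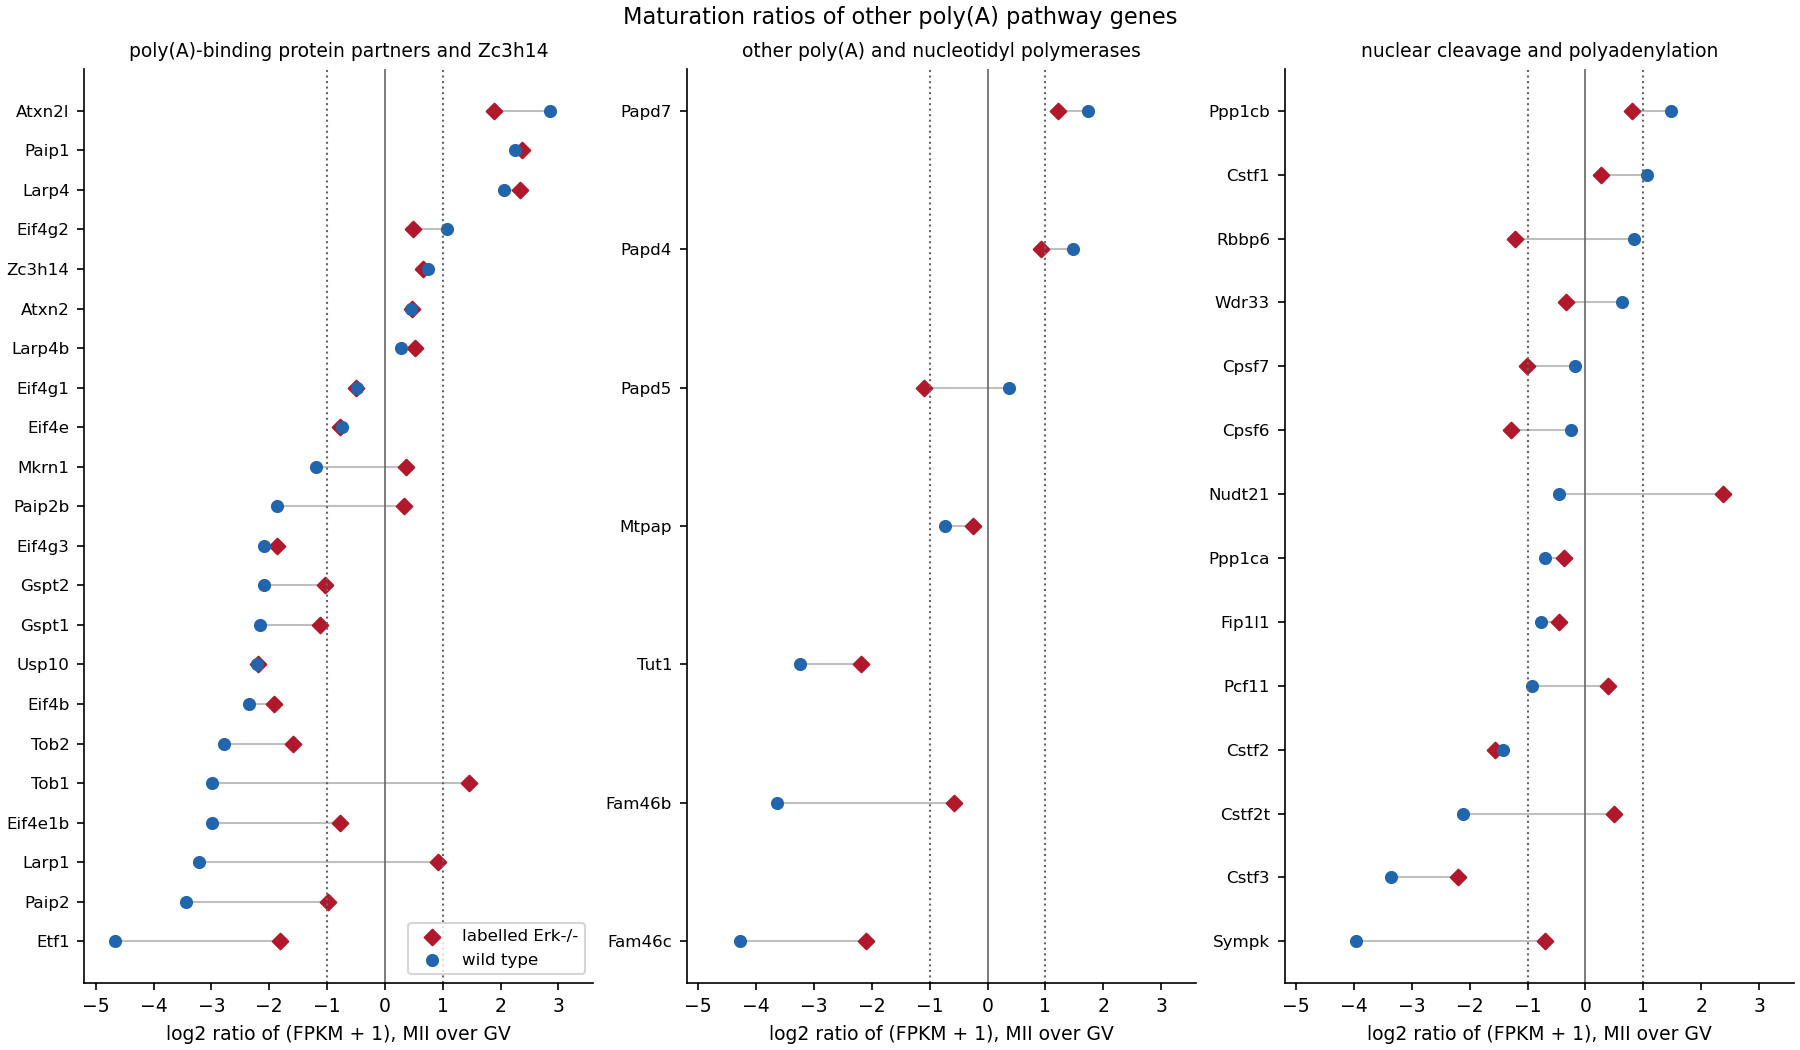
Log2 ratio of (FPKM + 1) at MII over GV of each other poly(A) pathway gene whose average was 1 FPKM or more, in the libraries labelled Erk-/- (diamonds) and in wild type (circles), with dotted lines at 2-fold. Paip1 lies at 2.37 and 2.24 in the 2 genotypes, and Paip2 at -0.99 and -3.44.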

How the data were processed

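The authors deposited FPKM per gene with a lower and an upper bound, per the file headers, and CASAVA 1.8, TopHat and build mm9 are named per the submitters' processing notes. The sources used here do not give the program that computed FPKM, its annotation, the confidence level of the bounds, or how strand and multiply mapped reads were handled. FPKM holds no counts, so depth is unknown. FPKM was summed over rows of a symbol (260 symbols had several) and 1 added to the files' 0-based locus starts. Log2((FPKM + 1)/(FPKM + 1)) was taken over the 9990 genes averaging 1 FPKM or more, and 2-fold was the size counted. The calculation was tested on simulated data. Similar profiles were ranked by the root mean square difference of centred log2(FPKM + 1) among single-row genes averaging 10 FPKM or more. The members, lists, 11 alternatives and naming rule (all members, and per list and comparison the 3 largest ratios) were chosen with earlier results of these data known. Near-identical copies were sought with BLAST. Python 3.11.15 and pandas 2.3.3 were used.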

Additional observations from a re-analysis of the deposited data

Results flagged for a closer look

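Among the members and the other poly(A) pathway genes, Tob1 moved past 2-fold in opposite directions in the genotypes. Its log2 ratio of MII to GV was 1.46 in the libraries labelled Erk-/- and -2.99 in wild type. Tob1 was listed at 0 in GV labelled Erk-/- and had 1.75 FPKM in MII labelled Erk-/-, so the first ratio depends on the added 1 FPKM. The difference was not tested.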

How the results depend on the processing

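Of the counts of members recomputed under the alternatives, 93 stayed within 1.5 times the reported count and 17 did not. A count of 3 in place of 4, or of 2 in place of 3, was within that limit. Dropping the filter on low values, leaving out genes listed at 0 and keeping the highest row of a symbol could not change these counts. Each member averaged at least 1 FPKM, was above 0 in every library and stood on a single row. The counts under those settings are among the 93. With 5 FPKM added, 0 members were higher in GV labelled Erk-/- than in wild-type GV and 1 had a negative difference of maturation ratios. At a mean of at least 10 FPKM, which leaves 5 members without Pabpc1 and Papolg, 2 were lower at MII in the libraries labelled Erk-/-, 2 in wild type, 0 higher in GV labelled Erk-/- and 1 negative in the difference, and the median log2 ratios of MII to GV turned to 0.12 in the libraries labelled Erk-/- and 0.093 in wild type, since Papola becomes the middle gene. Median-of-ratios scaling gave 2 members higher in GV labelled Erk-/- and 1 lower in MII labelled Erk-/-, and rescaling to a common sum gave 2 higher in GV labelled Erk-/-. A size of 1.5-fold gave 2 higher and 1 lower in GV labelled Erk-/-. A size of 3-fold gave 1 lower at MII in the libraries labelled Erk-/-, 0 higher in GV labelled Erk-/-, 1 higher in MII labelled Erk-/- and 0 negative in the difference. Requiring the nearest ends of the authors' bounds to be 2-fold apart as well gave 0 higher in GV labelled Erk-/- and 1 negative in the difference. It also gave 3 lower at MII in the libraries labelled Erk-/-, within 1.5 times the reported count. This setting used bounds that the FPKM exceeded as well (Pabpn1l in every library, Pabpc1l at GV and Pabpn1 at MII). It therefore cannot decide calls that rest on those bounds. The cause of the changes under scaling was not tested. No member ratio of at least 2-fold changed sign under both scalings, nor did a difference of maturation ratios of that size under the pseudocounts. The filters cannot turn the sign of a member ratio. The pseudocounts cannot turn that of a ratio of 2 libraries, so those settings say nothing about its direction. No paired analysis was possible because each group has 1 library, and for the same reason no library could be left out. At MII the values of Pabpc1 have bounds that reach 0, which limits what its level can show.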
